A study of Drosophila melanogaster with 6 samples.

Results

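The genes twz (tiwaz, FBgn0034636), Inos (FBgn0025885) and Obp99a (FBgn0039678) are 3 of the 17559 genes counted in neuroepithelial cells of Drosophila melanogaster larvae, from the optic lobe. They were chosen by identifier because earlier results of the same dorsal and ventral libraries showed them higher in ventral cells. Their dorsal and ventral levels are therefore given as a description, and calls of the fit, where stated for them, restate that choice and support nothing. The libraries hold polyadenylated RNA of GFP-labelled cells of the outer proliferation centre (OPC), the neuroepithelium that produces the neurons of the medulla. There were 3 dorsal and 3 ventral libraries, and each pooled cells of 3 to 4 brains. All brains were labelled late L2 and female and came from larvae raised at 25 °C, and the labels name neither the genotype nor the driver of GFP. Cells were drawn by hand with a glass micropipette, so the division into dorsal and ventral rests on where the pipette was placed.

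The 3 genes act in unrelated processes. Inos encodes inositol-3-phosphate synthase, the enzyme that turns glucose 6-phosphate into inositol 3-phosphate, which is the committed step of making inositol. Inositol is then built into phosphatidylinositol, whose phosphorylated forms mark membranes and release the second messenger IP3. The gene twz encodes a BTB domain protein related to vertebrate KCTD15. In adult flies it has been studied with the transcription factor gene TfAP-2 in feeding and male aggression. Obp99a encodes a member of the odorant-binding proteins, small secreted carriers of hydrophobic ligands best known from the fluid around olfactory neurons.

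The genes lie apart in the genome (BDGP6, which has dm6 coordinates). Both twz (chromosome 2R, 21560246 to 21576035) and Inos (chromosome 2R, 7454922 to 7458874) are on the minus strand. Obp99a (chromosome 3R, 29671657 to 29672334) is on the plus strand. Merged exons span 2758 bp in twz, 1986 bp in Inos and 610 bp in Obp99a. The annotation gives 2 transcripts for twz, 1 for Inos and 2 for Obp99a, and the counts per gene do not separate them. No other annotated gene overlaps any of the 3, on either strand.

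Library totals ran from 21114019 to 27815885 counted reads. The neuroepithelial genes of the marker list, among them shg, hth and Optix, were all read, although Rx had only 0 to 224 reads per library. The summed level of the list spanned 1288 to 1759 CPM over the dorsal and 1264 to 1987 CPM over the ventral libraries. CPM is reads over the library total, scaled by trimmed mean of M-values. Of this sum hth alone gave 522 to 1078 CPM. Reads of neuroblast and neuron genes were also present, with ase at 211 to 476 CPM and elav at 235 to 583 CPM over the 6 libraries. Ventral replicate 3 differed less from the 3 dorsal libraries (chi-square of counts over degrees of freedom of 50.4 to 62.7) than from ventral replicates 1 (101) and 2 (81.2), so each difference of the 3 genes is also given without those 2 libraries. The dorsal libraries differed among themselves by 61.6 to 102. Dorsal replicate 1 was nearer to ventral replicate 1 (90.0) than to dorsal replicates 2 (102) and 3 (92.0), so this measure did not separate the groups. The male-enriched RNAs lncRNA:roX1 and lncRNA:roX2 ran from 9246 to 84065 and from 0 to 16000 reads in libraries labelled female, both with their lowest counts in dorsal replicate 3 and ventral replicate 2.

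The gene twz was close to silent in dorsal cells and readily read in ventral cells. Ventral replicates 1, 2 and 3 held 548, 377 and 340 of its reads, and the dorsal replicates of the same numbers held 28, 45 and 18. Scaled to CPM, the ventral values are 20.8, 18.5 and 14.0 and the dorsal values 1.09, 1.59 and 0.69. Every ventral library was far above every dorsal library, and the lowest ventral level was 8.79 times the highest dorsal level. The ventral mean was 17.8 ± 3.44 CPM and the dorsal mean 1.12 ± 0.45 CPM (SD, n = 3 each), a log2 fold change of 3.97 ± 0.46 (ventral minus dorsal, edgeR estimate ± SE) or 15.7-fold. The dorsal level was thus 6.33% of the ventral level. The smallest count, 18 reads in dorsal replicate 3, has a 95% Poisson interval of 10.7 to 28.4 reads (counting error only).

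Inos was read in both groups and stood about 4 times as high in ventral cells. Ventral replicates 1, 2 and 3 held 800, 541 and 917 reads, and their dorsal counterparts 174, 317 and 146. The ventral levels were thus 30.3, 26.6 and 37.8 CPM, and the dorsal levels 6.78, 11.2 and 5.58 CPM. The groups did not overlap, and the lowest ventral level, in replicate 2, was 2.37 times the highest dorsal level, which was also in replicate 2. The ventral mean was 31.6 ± 5.71 CPM and the dorsal mean 7.86 ± 2.97 CPM (SD, n = 3 each), a log2 fold change of 2.004 ± 0.33 or 4.01-fold. The dorsal level was 24.9% of the ventral level.

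Obp99a was abundant everywhere, and its ventral rise was the smallest of the 3 as a fold. Ventral replicates 1, 2 and 3 held 10451, 9965 and 12186 reads, and their dorsal counterparts 6276, 5388 and 6859. This gives ventral levels of 396, 490 and 502 CPM and dorsal levels of 245, 191 and 262 CPM. Here too the groups did not overlap, but the margin was narrower, with the lowest ventral level 1.51 times the highest dorsal level. The ventral mean was 463 ± 57.9 CPM and the dorsal mean 233 ± 37.2 CPM (SD, n = 3 each), a log2 fold change of 0.99 ± 0.18 or 1.99-fold. The dorsal level was 50.3% of the ventral level, and the difference in means was 230.1 CPM, against 16.6 CPM for twz and 23.7 CPM for Inos.

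**Figure D1:**
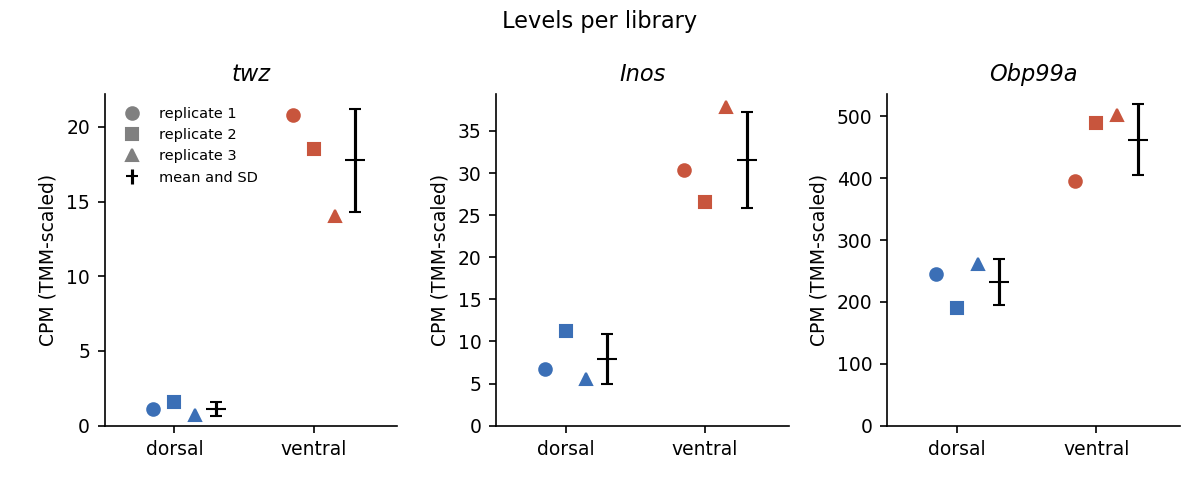
Level in CPM (linear axis from 0, scaled by trimmed mean of M-values) of twz, Inos and Obp99a in each library. Blue points are the 3 dorsal and red points the 3 ventral libraries, the marker shape gives the replicate number, and the black bar is the mean with SD (n = 3). In each panel every ventral point lies above every dorsal point, and the ratio of the lowest ventral to the highest dorsal point is 8.79 for twz, 2.37 for Inos and 1.51 for Obp99a.

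Per length of merged exon, the order of the 3 genes was the same in every library. In TPM, the length-scaled counterpart of CPM, Obp99a had a dorsal mean of 539 ± 96.9 and a ventral mean of 1063 ± 99.3. The dorsal and ventral means of Inos were 5.56 ± 1.96 and 22.4 ± 4.33 TPM, and those of twz 0.57 ± 0.22 and 9.08 ± 1.99 TPM (SD, n = 3 each). Obp99a was above 96.6% of tested genes in dorsal and 98.2% in ventral cells. The level of twz moved from above 8.14% to above 37.2% of tested genes, and that of Inos from above 29.9% to above 55.3%. In bulk libraries such as these, fewer cells with the transcript and less transcript per cell cannot be told apart.

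Relative to the mean, the replicates of all 3 genes varied more in dorsal than in ventral libraries, although the SD in CPM was larger in ventral libraries. For twz the coefficient of variation was 40.4% in dorsal and 19.4% in ventral libraries. Reads alone, at the dorsal depth of twz, give 18.2%. For Inos the coefficients were 37.8% and 18.1%, with 6.86% and 3.65% from counting alone, and for Obp99a they were 15.99% and 12.5%, with 1.27% and 0.96% from counting alone. With 3 libraries a group, these coefficients are themselves loosely estimated. Within groups the genes did not share 1 order of libraries. In dorsal cells twz and Inos were highest in replicate 2 and lowest in replicate 3, while Obp99a was highest in replicate 3 and lowest in replicate 2. In ventral cells twz was highest in replicate 1, and Inos and Obp99a were highest in replicate 3.

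Setting each ventral library against each dorsal library gives 9 ratios per gene. They ran from 8.79 to 30.2 for twz, from 2.37 to 6.77 for Inos and from 1.51 to 2.63 for Obp99a, so every ratio was above 1. Against the dorsal mean, twz was 18.5, 16.5 and 12.5 times as high in ventral replicates 1, 2 and 3. Inos was 3.86, 3.38 and 4.81 times as high in the same libraries, and Obp99a was 1.70, 2.10 and 2.16 times as high. Ventral replicate 3 thus held the largest rise of Inos and Obp99a and the smallest rise of twz. In that library the synaptic gene nSyb, at 39.0 CPM in ventral replicate 1 and 6.63 CPM in ventral replicate 2, was at 0.62 CPM, below the dorsal range of 1.05 to 1.64 CPM. The synaptic genes brp and Syt1 were also lowest there among the ventral libraries, but both stayed above every dorsal library.

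With ventral replicates 1 and 2 both removed, leaving replicate 3 alone, the log2 fold changes were 3.63 ± 0.65 for twz, 2.26 ± 0.41 for Inos and 1.11 ± 0.21 for Obp99a. With 1 library left out at a time the values ran from 3.72 to 4.31 for twz, 1.81 to 2.35 for Inos and 0.87 to 1.09 for Obp99a. The largest shift came from dorsal replicate 2, the dorsal library richest in twz and Inos and poorest in Obp99a. With the level of lncRNA:roX2 as a covariate the log2 fold changes were 4.02, 2.01 and 1.00.

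**Figure D2:**
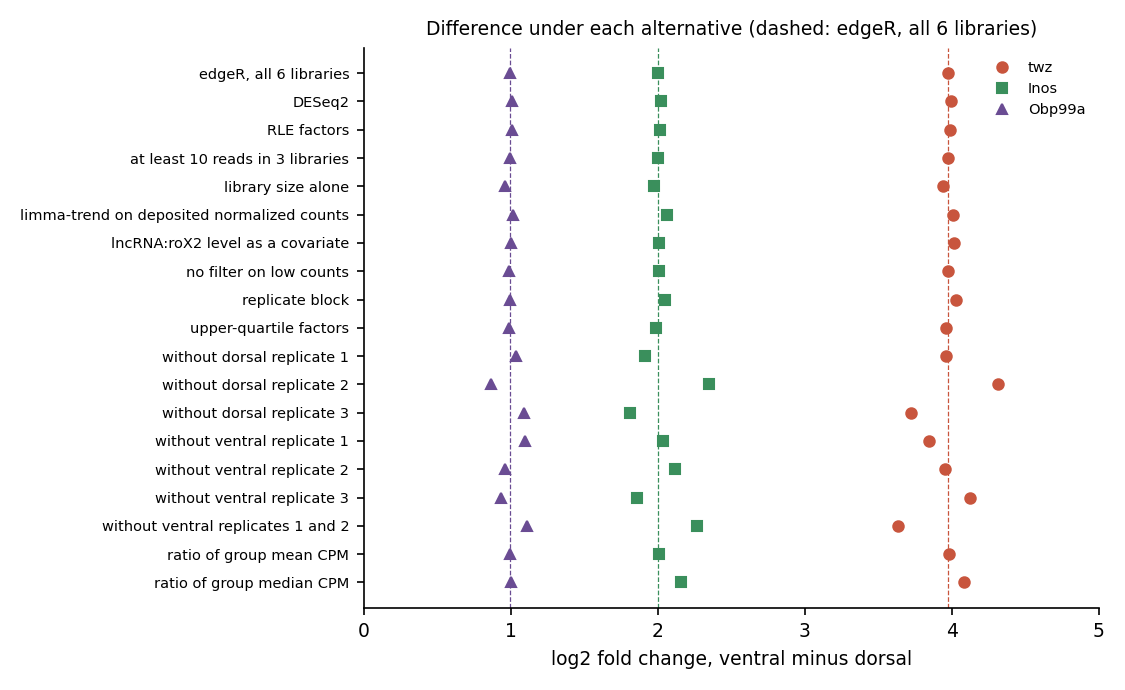
Log2 fold change, ventral minus dorsal, of twz (circles), Inos (squares) and Obp99a (triangles) under each alternative fit or ratio, with dashed lines at the edgeR estimate over all 6 libraries. All values lie above 0, from 3.63 to 4.31 for twz, from 1.81 to 2.35 for Inos and from 0.87 to 1.11 for Obp99a.

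Over the whole table the contrast that chose these genes gave few calls. Of 8707 genes tested with the edgeR quasi-likelihood test, 6 (0.0689%) were higher in ventral cells at a Benjamini-Hochberg adjusted p under 0.05, and twz was 1 of them, while Inos and Obp99a were not. DESeq2 called 32 of 9973 genes (0.321%) toward ventral, all 3 of these genes among them. Over 16 alternative fits twz was called in 14, and Inos and Obp99a were each called in 2, namely DESeq2 and the unfiltered edgeR fit, which called 9 of 15844 genes (0.0568%) toward ventral. The call of twz was lost without dorsal replicate 1 (log2 fold change 3.96 ± 0.56) and without ventral replicates 1 and 2 together. Every ventral library lay above every dorsal library in 276 tested genes (3.17%), and in 23 of them (0.264%) the lowest ventral library was at least 2 times the highest dorsal library. All 3 genes meet the former rule, and twz and Inos the latter. These counts restate what chose the genes and are no evidence about them.

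**Figure D3:**
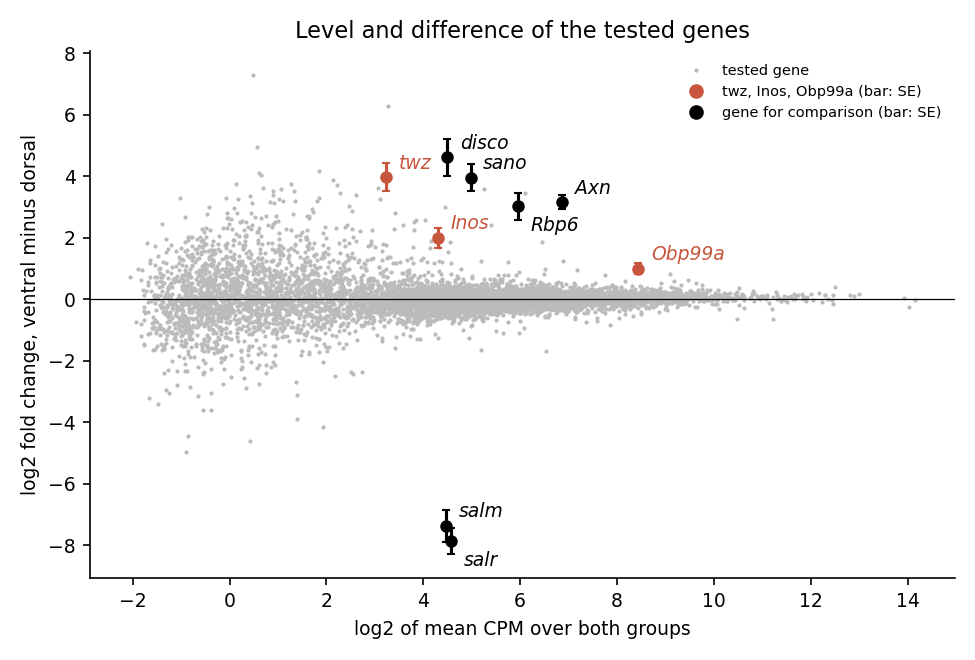
Log2 of mean CPM (x axis) against log2 fold change, ventral minus dorsal (y axis), for 8707 tested genes in grey, with twz, Inos and Obp99a in red and 6 other genes for comparison in black (bars are SE). The 3 genes lie above 0 at rising levels and falling folds, from twz (3.97) through Inos (2.004) to Obp99a (0.99).

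The residual dorsal level can be set beside other genes of the same contrast. The dorsal level was 4.08% of the ventral level for disco, a zinc finger gene of the ventral cells, 6.46% for sano, 11.1% for Axn and 12.2% for Rbp6. The value of twz (6.33%) lay within this range, and those of Inos and Obp99a lay above it. Like twz, the genes disco, sano, Axn and Rbp6 were called toward ventral by edgeR on this contrast, and Inos and Obp99a were not. The comparison thus restates those calls. The ventral level of the dorsal marker salr was 0.425% of its dorsal level. Dorsal disco was highest in replicate 3 (3.59 CPM), the library in which twz and Inos were lowest.

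The other well-read genes of inositol synthesis, Pis, Cds and CG9391, had log2 fold changes between -0.30 and 0.30. Of 9 other matched genes of inositol synthesis and recycling 5 were tested. Of these 0 were called by edgeR or by DESeq2 (0.0919% and 0.451% of all genes), 0 had an unadjusted p under 0.05, and the median log2 fold change was 0.18, against -0.0012 over all 8707 tested genes. Pis, which joins inositol to the lipid CDP-diacylglycerol, had a dorsal mean of 80.2 ± 7.07 CPM and a ventral mean of 76.9 ± 14.8 CPM (log2 fold change -0.06 ± 0.20). Cds, which makes CDP-diacylglycerol, stood at 50.8 ± 4.91 and 62.5 ± 28.9 CPM (0.30 ± 0.30). The inositol monophosphatase family gene CG9391 stood at 24.2 ± 0.57 and 19.7 ± 5.94 CPM (-0.30 ± 0.27). Its relatives CG17029 and CG17026 were low, at 0.10 to 4.55 and 0 to 1.44 CPM. Miox, the inositol oxygenase gene that opens the breakdown of inositol, had 0 to 3 reads per library and was not tested.

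Genes that use inositol lipids had median differences near 0. Of 11 tested genes of inositol phosphate and IP3 signalling 0 were called, with a median log2 fold change of -0.06, and of 18 tested phosphoinositide kinase and phosphatase genes 0 were called, with a median of 0.05 (0.0919% of all genes were called). The inositol polyphosphate kinase gene Ipk2 had dorsal and ventral means of 54.7 ± 9.55 and 52.6 ± 6.03 CPM, and the phospholipase C gene norpA had means of 51.0 ± 9.40 and 51.7 ± 21.7 CPM. The phosphatidylinositol 5-phosphate 4-kinase gene PIP4K had a log2 fold change of 0.12 ± 0.27. The gene l(1)G0196, of the diphosphoinositol pentakisphosphate kinases, stood at 38.5 ± 6.96 and 55.9 ± 1.02 CPM without overlap (0.54 ± 0.21, unadjusted p = 0.0252 and adjusted p = 1.00, edgeR). Without overlap in the other direction were the inositol polyphosphate 5-phosphatase gene 5PtaseI (54.6 ± 6.01 and 45.0 ± 3.22 CPM) and the kinase gene Ipk1 (4.73 ± 0.48 and 3.12 ± 1.64 CPM), with log2 fold changes of -0.28 ± 0.19 and -0.60 ± 0.62. Upstream, 0 of 8 tested genes of glucose 6-phosphate metabolism were called. Pgi, whose enzyme takes glucose 6-phosphate into glycolysis, stood at 144 ± 18.9 and 145 ± 34.8 CPM, and Hex-A, a hexokinase gene, at 45.6 ± 11.0 and 50.2 ± 2.21 CPM.

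Among the genes tied to twz, TfAP-2 had a similar pattern but a wide spread. Ventral replicates 1, 2 and 3 held 706, 338 and 76 reads of TfAP-2, and their dorsal counterparts 44, 86 and 2. The ventral levels were 26.8, 16.6 and 3.13 CPM and the dorsal levels 1.72, 3.05 and 0.08 CPM. Ventral replicates 1 and 2 were high, whereas ventral replicate 3 was only 1.03 times the highest dorsal library, and the 95% Poisson intervals of those counts overlapped (59.9 to 95.1 and 68.8 to 106 reads). The log2 fold change was 3.26 ± 1.03, which did not pass over all genes (unadjusted p = 0.0101, adjusted p = 1.00, edgeR; adjusted p = 0.541, DESeq2). TfAP-2 ranked the 6 libraries in the same order as twz, from ventral replicate 1 at the top to dorsal replicate 3 at the bottom. Of the 275 other tested genes with every ventral library above every dorsal library, 10 (3.64%) shared this order, 4 (1.45%) shared that of Inos and 3 (1.09%) that of Obp99a, so such a match is not particular to TfAP-2, and it depends on the near tie just described. TfAP-2 and the synaptic gene nSyb were both highest in ventral replicate 1 and next in ventral replicate 2. The summed level of the neuron marker list did not follow this order, at 709, 1248 and 699 CPM in ventral replicates 1, 2 and 3. In their dorsal counterparts the sum was 894, 1002 and 601 CPM. The part of neuronal RNA in the TfAP-2 values was not tested.

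The remaining genes of the same lists gave no call. Of 14 other tested BTB and Cullin-3 genes 0 were called by edgeR or DESeq2, and the median log2 fold change was 0.13. With 0.0919% and 0.451% of all genes called by these tools, 0 calls say little about 14 genes. Cul3, the scaffold of the ubiquitin ligases that many BTB proteins join, had dorsal and ventral means of 135 ± 8.34 and 170.2 ± 33.9 CPM (0.34 ± 0.19). The sleep gene inc, which encodes another KCTD-like adaptor of Cul3, stood at 271 ± 41.2 and 313 ± 46.9 CPM (0.21 ± 0.19), and CG10465 at 286 ± 33.9 and 324 ± 99.4 CPM (0.18 ± 0.23). Ktl, named after its values were seen, had a fold as large as that of twz (log2 fold change 4.03 ± 1.54) but rested on few reads. Its ventral reads numbered 200, 2 and 30 and its dorsal reads 1, 1 and 12, and the groups overlapped. Of the feeding and aggression list, the monoamine transporter gene Vmat stood at 4.29 ± 1.51 and 10.8 ± 9.40 CPM, and the GABA-B receptor genes GABA-B-R1 and GABA-B-R2 had log2 fold changes of -0.10 ± 0.75 and 0.20 ± 0.74. The octopamine synthesis gene Tdc2 and the peptide gene Dsk were too low to test.

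Obp99a was the odorant-binding protein gene with the highest CPM in each of the 6 libraries. Of 51 other family members 45 stayed under 1 CPM in every library, 6 of them without a read. Only 6 of the 51 were tested, with 0 calls by edgeR or DESeq2, against 0.0919% and 0.451% of all genes. Obp44a came next, at 341, 44.3 and 24.5 CPM in ventral replicates 1, 2 and 3 and 14.7, 74.7 and 23.9 CPM in their dorsal counterparts. Its high value was confined to ventral replicate 1 among these 6 libraries, and its groups overlapped (log2 fold change 1.85 ± 1.06). The genes that share the cytological number of Obp99a were low. Obp99d had dorsal and ventral means of 5.04 ± 2.95 and 3.05 ± 0.32 CPM and Obp99c of 1.36 ± 0.31 and 0.65 ± 0.32 CPM, with log2 fold changes of -0.72 ± 0.60 and -1.07 ± 0.84. Obp99b had a highest level of 2.23 CPM and was not tested.

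**Figure D4:**
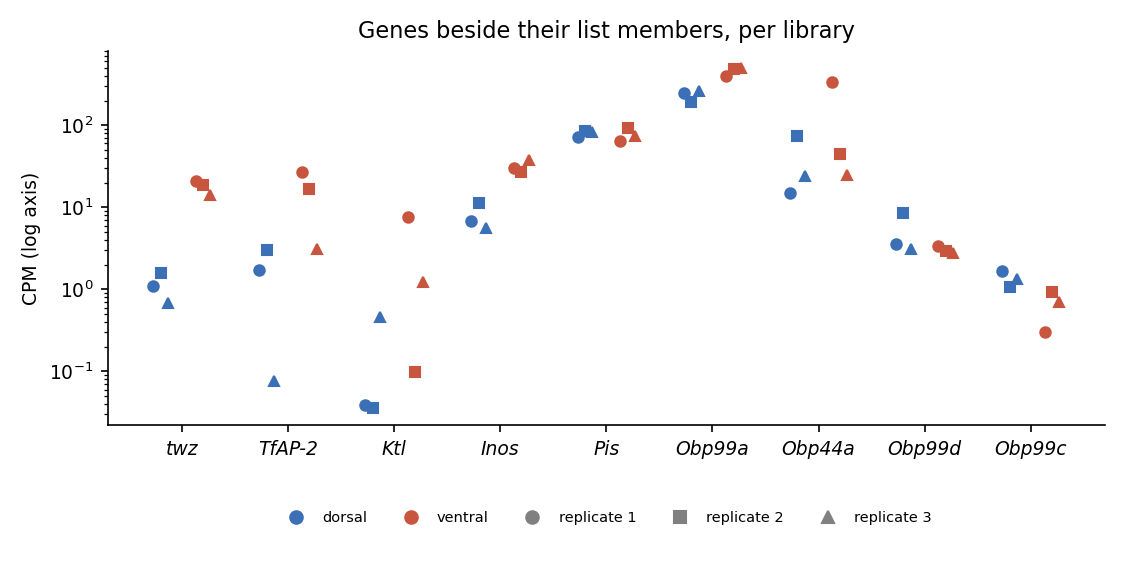
Level in CPM (log axis) in each library for twz, Inos and Obp99a and for genes of their lists, with dorsal in blue, ventral in red and the replicate number as the marker shape. Ventral TfAP-2 spans 3.13 to 26.8 CPM and Obp44a is high in ventral replicate 1 (341 CPM), while the ventral points of twz, Inos and Obp99a sit close together and above the dorsal ones.

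Over all 7 pathway lists, 66 genes other than the 3 were tested and 0 were called by edgeR in either direction, against 8 of 8707 (0.0919%) in the whole table. DESeq2 called 0 of them, against 0.451% in its table. With an unadjusted p under 0.05 there were 4 (6.06%, namely TfAP-2, Ktl, l(1)G0196 and PIP5K59B), against 3.2% of all tested genes. All 4 had higher values in ventral libraries. Of the 66 genes, 44 (66.7%) had a higher estimate in ventral cells, against 49.7% of all tested genes. Groups did not overlap in 3 genes with ventral above (4.55%, against 3.17% overall) and in 3 with dorsal above (4.55%, against 4.09%). The lists are small, and no share here is read as different from the whole.

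**Figure D5:**
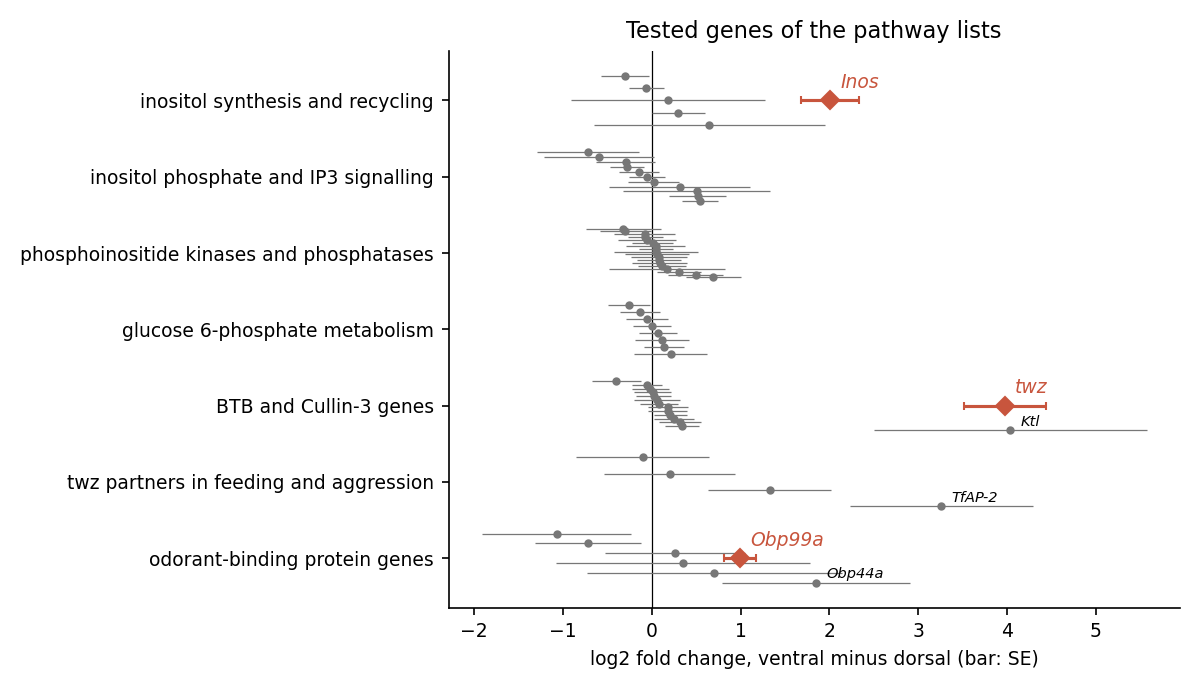
Log2 fold change, ventral minus dorsal, of each tested gene of the 7 pathway lists (grey, bars are SE), with Inos, twz and Obp99a as red diamonds in their own lists. Most grey points lie near 0, whereas Inos stands at 2.004 beside a list whose other genes span -0.30 to 0.65, and Ktl and TfAP-2 have wide bars.

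The genes next to the 3 on the chromosome gave varied values. Of 12 protein-coding neighbours, the 2 next by start position on each side of each gene, 9 were tested and 0 were called by edgeR, which with 0.0919% of all genes called says little about 9 genes. CG11141, on the same strand with its 3′ end 811 bp upstream of Inos, had dorsal and ventral means of 19.0 ± 3.83 and 22.0 ± 3.96 CPM (log2 fold change 0.21 ± 0.27). CG11127, the next gene on, was lower in all ventral libraries (55.1 ± 2.94 and 41.8 ± 4.62 CPM, -0.40 ± 0.19). The neighbours of twz were all under 2 CPM, the nearest 7457 bp away. Obp99a sits between ppk30 and ppk19, genes of the sodium channel family of pickpocket, at 179 and 122 bp. The downstream gene ppk19 stood at 0.42 ± 0.23 and 0.42 ± 0.17 CPM. The upstream gene ppk30 had 35, 54 and 7 ventral reads and 0, 9 and 2 dorsal reads in replicates 1, 2 and 3, too few to be tested. Further upstream ppk20 had 61, 59 and 52 ventral reads and 23, 39 and 8 dorsal reads, without overlap but without a call (log2 fold change 1.502 ± 0.81). Bub3, a spindle checkpoint gene beyond ppk19, stood at 298 ± 17.0 and 293 ± 16.1 CPM.

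The genes most like each of the 3 were sought by the root mean square difference of log2(CPM + 0.5), centred on each gene's mean, over the 6 libraries. For twz these were Axn (0.46), lncRNA:CR46111 (0.57), Rbp6 (0.64), FBgn0042650 (0.69) and Spn47C (0.72). Of these, lncRNA:CR46111 and FBgn0042650 had log2 fold changes of 7.31 and 6.30, against 3.97 for twz. Their dorsal levels were at most 0.04 and 0.38 CPM, and those of twz 0.69 to 1.59 CPM. At such levels the added 0.5 shrinks a fold. The nearest to Inos were lncRNA:CR44024 (0.29), Spn47C (0.35), CG42322 (0.43), CG7884 (0.44) and lncRNA:CR46111 (0.47). All 5 of these stayed under 5 CPM in every library, where the added 0.5 shrinks a fold. HPS4 (0.17) was nearest to Obp99a and had dorsal and ventral means of 14.0 ± 3.40 and 26.3 ± 3.64 CPM, without overlap but without a call. It was followed by CG5810 (0.20), CG6071 (0.21), Gr32a (0.21) and peg (0.22), each under 6 CPM in every library. Of the 3 genes themselves, Inos was at rank 7 by closeness to twz (0.82) and Obp99a at rank 154 (1.34). From Inos, Obp99a was at rank 57 (0.67) and twz at rank 227. From Obp99a, Inos and twz were at ranks 5351 and 8540. The measure includes the difference between groups that chose the 3 genes. Closeness and ranks thus in part restate that choice and support nothing.

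Summed markers of other cell types overlapped between the groups. Of 8 matched fat body genes 5 stayed under 1 CPM in every library. The storage and fat body protein genes Fbp1 and Fbp2 had 0 to 2 and 1 to 6 reads, and the summed list spanned 2.71 to 8.50 CPM over dorsal and 7.13 to 30.4 CPM over ventral libraries, most of it apolpp in ventral replicate 1 (29.5 CPM). Of 9 hemocyte genes 6 stayed under 1 CPM in every library, and the sum spanned 49.5 to 54.8 CPM over dorsal and 49.0 to 55.3 CPM over ventral libraries. The summed glia list spanned 1173 to 1223 CPM over dorsal and 988 to 1371 CPM over ventral libraries, nearly all of it nrv2 and Eaat1, while the glial regulator gene repo had 80, 4 and 14 ventral and 4, 31 and 24 dorsal reads. The neuron list ran from 601 to 1002 CPM and 699 to 1248 CPM, most of it elav and fne, and the neuroblast list from 713 to 1534 CPM and 897 to 1645 CPM. The 7 epidermis and cuticle genes summed to at most 0.50 CPM, and the 5 matched trachea genes to 1.48 to 6.27 CPM over dorsal and 1.36 to 3.96 CPM over ventral libraries. Each of these summed ranges overlapped between the groups, and of 41 tested genes of the marker lists 0 were called by edgeR, against 0.0919% of all genes, and 1, cac, by DESeq2, against 0.451%. With an unadjusted p under 0.05 there were 4 (9.76%, against 3.2% of all tested genes), all among the 8 neuron genes, with nSyb, brp and Syt1 toward ventral and cac toward dorsal. The median log2 fold change over the neuron genes was 0.60, and those of nSyb, brp and Syt1 were 3.62 ± 1.11, 1.74 ± 0.58 and 1.29 ± 0.40. The synaptic genes brp (6.22 to 20.8 CPM in ventral and 2.23 to 4.396 CPM in dorsal cells) and Syt1 (9.03 to 26.5 and 7.34 to 7.44 CPM) did not overlap between the groups, with ventral above, and both were lowest of the ventral libraries in replicate 3. The part of neuronal RNA in the differences of twz, Inos and Obp99a was not tested. The values without ventral replicates 1 and 2 cannot test it, since the neuron genes differed from each other in ventral replicate 3. There brp and Syt1 were above every dorsal library, and nSyb was below its dorsal range. The summed neuron list (699 CPM) lay within its dorsal range.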

How the data were processed

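A deposited table holds raw counts per gene. The submitters' processing notes list Trimmomatic, featureCounts and DESeq2, and dm6 and BDGP6 as builds. Which aligner and which tool versions the authors ran, and whether strand was counted, is information not given in the sources used here. A further deposited table, the authors' DESeq2-normalized values on a signal scale, was the raw counts over a constant for each library (no value differed by more than 0.01). Per the labels' protocols, libraries were made with SMART-Seq v4 and Nextera XT kits, so reads carry no stated molecular identifiers.

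Of 17559 identifiers 17253 had a symbol. Counts were fitted with edgeR 4.0.16 in R 4.3.3 (TMM, filterByExpr, robust quasi-likelihood, group as the only term), adjusted by Benjamini-Hochberg over 8707 genes. SE was obtained by dividing the size of the log2 fold change by the root of its F statistic. The fit was tested on simulated counts with known changes. Alternatives used DESeq2 1.42.0, limma 3.58.1, other factors and filters, the replicate number as a block, and left-out libraries. Poisson intervals came from scipy 1.17.1. TPM used merged exons of the BDGP6 annotation.

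The 3 genes and all lists were chosen with earlier results of these data known. Named genes were the 3, the 5 most alike each, the up to 6 most abundant tested genes of a list (named in part), neighbours and 6 genes for comparison; others were named after their values were seen. Genes of the lists with no match (IP3K2, Sac1, vib, Gliotactin, FASN1 and btl) were not analysed here. Since the labels name no separate cultures or days, p-values reflect only how these pooled samples vary, which may be technical. Each of the pairs of libraries differed by more than sampling noise. Sequences of the genes are not shown here.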

Additional observations from a re-analysis of the deposited data

How the results depend on the processing

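Under 18 alternatives the log2 fold changes of twz, Inos and Obp99a kept their sign and stayed within 1 replicate SD of the edgeR estimate over all 6 libraries. Their groups did not overlap, so leaving libraries out could hardly change the sign. These values describe the spread of the estimates and are no support for the differences. With 1 library left out at a time they ran from 3.72 to 4.31, 1.81 to 2.35 and 0.87 to 1.09. The count of genes called toward ventral moved from 6 to 32 with DESeq2, to between 2 and 6 with each library left out (2 without dorsal replicate 1), and to 1 without ventral replicates 1 and 2, an alternative chosen after seeing the data in which the 1 ventral library left borrows its spread from the dorsal group. The count toward dorsal moved from 2 to 13 with DESeq2 and to 4 with no filter on low counts. The fits with libraries left out held fewer samples, and the cause of these moves was not tested. Calls among the 66 other genes of the pathway lists stayed at 0 in all 16 alternative fits. With 0.0919% of all genes called by edgeR and 0.451% by DESeq2, this says little about 66 genes. The lncRNA:roX2 covariate was also chosen after seeing the data.

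With the replicate number as a block the log2 fold changes were 4.03, 2.05 and 1.00, with 5 genes called toward ventral and 2 toward dorsal. Deviations of same-numbered libraries correlated at 0.003, -0.04 and 0.06 across genes, so the numbers were not taken to pair samples. Depth limits twz most, whose dorsal counts were 18 to 45 reads.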
